A study of Mus musculus with 21 samples.

Results

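The transcriptome of *Zbtb1*-targeted progenitors was compared with that of control progenitors gene by gene. The members of this comparison were the genes with a mean above 1 CPM (reads of a gene scaled to a common library total) over the 3 libraries labelled sgZbtb1 and the 3 labelled sgControl. The rule took 11601 of the 55421 genes in the QuantSeq table, whereas 16364 genes were above 0 in at least 1 of these 6 libraries. Of the 11601, 10154 were protein-coding, 591 were lncRNA genes and 856 were of other biotypes. The rule used the level only, with both groups together, and 232 members had a mean of at most 1 in sgControl and 474 in sgZbtb1, so that these were members through the other group.

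The cells were lymphoid progenitors (LPs) from a mouse line of C57BL6/J background that lacks Ebf1, a transcription factor needed for the B lineage. They were grown on OP9 stroma with SCF, IL-7 and Flt3L at 10 ng/ml each and received no Notch stimulation. All groups carried the *Ebf1* deficiency and a Cas9-GFP virus. A second virus with an hNGFR marker brought a pool of 2 single-guide RNAs (sgRNAs), against luciferase in sgControl and against *Zbtb1* in sgZbtb1, and GFP+ hNGFR+ cells were sorted 5 days later. Each group had 3 biological replicates of this established line, and the cells of a group were sorted as a pool and not cloned. A further 9 libraries, 3 each for sgLmo2, sgCbfa2t2 and sgCbfa2t3, served as a second reference, since their cells were also cut in a gene of their own.

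Zbtb1 belongs to the BTB and zinc finger family, whose members bind DNA through zinc fingers and recruit corepressors through the BTB domain. It is known for its need in lymphoid development and for protecting lymphoid progenitors from p53-driven death. In LPs it is found with Lmo2, an adaptor that joins basic helix-loop-helix factors such as Lyl1, the bridging protein Ldb1 and the ETO-family corepressors in a single complex on DNA.

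QuantSeq gives 1 read near the 3′ end of each captured mRNA, so a value does not grow with transcript length. The 15 libraries held 1705416 to 2095447 reads, of which sgControl had 1705416 to 1727730 and sgZbtb1 1790019 to 2091514. A floor of 3 reads was worth 1.43 to 1.76 CPM, which covers counting error only. *Zbtb1* mRNA itself (chr12:76370266-76396950, plus strand) stood at 62.7, 66.6 and 55.7 CPM in sgControl and at 94.4, 113 and 109 CPM in the libraries labelled sgZbtb1. The 3 sgZbtb1 values lay above all sgControl values, with a log2 fold change of 0.77 ± 0.16 (SE, n = 3 against 3, adjusted p = 0.0011, limma). A 3′ read does not show whether the coding sequence was cut, so this level does not check the labels.

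The summed level of 9 B-lineage markers was 5.79 to 13.5 CPM in sgControl and 1.12 to 10.3 CPM in sgZbtb1, with 2 of the 9 genes at 0 in all 6 libraries. The 8 erythroid and megakaryocyte markers summed to at most 2.34 and 3.35 CPM, with 5 at 0, and the 4 mast and basophil markers were at 0. The 10 OP9 stroma markers summed to 4.63 to 9.97 CPM in sgControl and 2.95 to 6.14 CPM in sgZbtb1. The 7 T-lineage markers summed to 26.1 to 29.5 and 11.95 to 20.7 CPM, and the 8 NK and innate lymphoid markers to 7.52 to 10.6 and 0.478 to 2.79 CPM. Both of these sums were lower in every sgZbtb1 library. The T-lineage sum came mostly from *Trac*, a T cell receptor constant gene. *Trac* was at 23.8, 28.9 and 27.0 CPM in sgControl and at 20.7, 10.5 and 16.7 CPM in sgZbtb1. It was the only 1 of the 7 tested and was not called. In all 6 libraries 3 of the 7 were at 0. The 10 myeloid markers summed to 98.7 to 151 CPM in sgControl and 49.1 to 72.2 CPM in sgZbtb1, mostly from *Adgre1*. The 10 lymphoid progenitor markers, with *Il7r*, *Flt3* and *Dntt* among them, were all members and summed to 1418 to 1490 CPM and 1236 to 1330 CPM. Against sgControl, 3 of these 10 were called lower (*Ly6d*, *Kit* and *Ptprc*; limma, adjusted p under 0.05) and 1 higher (*Cd93*), where 2.93% of all genes tested were lower and 1.86% higher. The median log2 fold change of the 10 was -0.15, and the calls of *Kit* and *Ptprc* were each lost in 5 of the 6 fits that left out 1 library. In bulk libraries, fewer cells of a type and less RNA per cell cannot be told apart, and the part of such cells in the results below was not tested.

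A gene was called higher or lower at a Benjamini-Hochberg adjusted p under 0.05, from a limma fit on log2(CPM + 1) with all 15 libraries, adjusted over the 11601 genes. All fold changes below are on the log2(CPM + 1) scale, where low genes change by less than their ratio. Against sgControl, 556 genes were called, or 4.79% of those tested. In sgZbtb1, 216 were higher (1.86%) and 340 lower (2.93%), and at an unadjusted p under 0.05 there were 858 higher and 1188 lower. With edgeR on the recovered reads the split was 274 higher and 309 lower, and with DESeq2 236 and 269. Among called genes, those that fell had a median log2 fold change of -0.94, with 162 of 340 beyond 1 in size. Those that rose had a median of 0.47, with 31 of 216 beyond 1. The called genes that rose were more abundant, with a median of the mean level of 156 CPM against 39.2 CPM for those that fell. Over all genes tested it was 24.9 CPM. A low gene has a larger error and needs a larger change to be called, so these sizes depend on the call and on the level. The 3 sgZbtb1 libraries did not overlap the 3 sgControl libraries for 210 of the 216 and 330 of the 340, beside 22.9% of all genes tested. The overlap was read from the same 6 libraries that gave the difference, so it is not separate support for the calls. Without sgControl replicate 3 the count fell to 300, without sgZbtb1 replicate 3 to 303 and without sgControl replicate 2 to 353, and all genes tested had a median log2 fold change of -0.03.

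**Figure D1:**
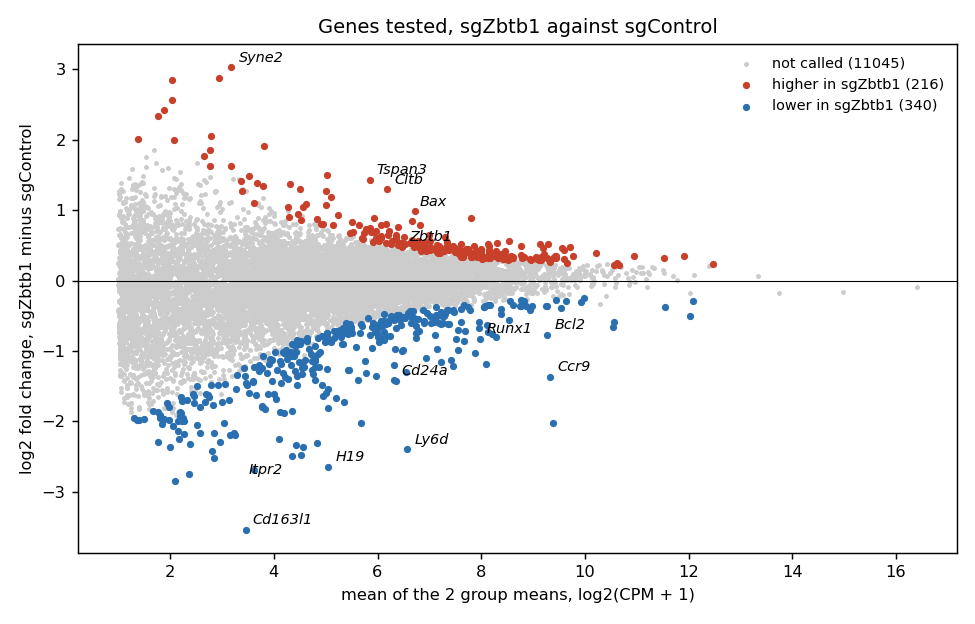
Log2 fold change of sgZbtb1 minus sgControl (vertical axis) against the mean of the group means as log2(CPM + 1) (horizontal axis) for the 11601 genes tested, 1 point a gene. The 216 genes called higher are red and the 340 called lower are blue; the lower ones reach further from 0, and most red points lie at middle to high levels.

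Against the 9 other gene-targeting libraries, a comparison that uses no sgControl library, 496 genes were called in sgZbtb1, which is 4.28% of those tested. Of these, 169 were higher (1.46%) and 327 lower (2.82%). With edgeR on the recovered reads the split was 257 higher and 281 lower, and with DESeq2 231 and 234, and with median-of-ratios size factors in the limma fit 223 and 292, so the size of the excess of lower genes differed between methods. Both comparisons hold the same 3 sgZbtb1 libraries, so their values are given side by side below and not as independent support for each other.

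The genes that rose or fell most were chosen among called genes whose sgZbtb1 and sgControl libraries did not overlap, so that their lying apart from sgControl was set by the choice. Among those that rose most was *Syne2* (chr12:75818134-76110926), which encodes nesprin-2, a large spectrin-repeat protein of the nuclear envelope that ties the nucleus to the cytoskeleton. It was at 3.48, 0 and 0.586 CPM in sgControl, or 6, 0 and 1 reads, and at 12.8, 15.8 and 15.7 CPM in sgZbtb1. No library of the other 3 conditions exceeded 3.39 CPM. The log2 fold change was 3.03 ± 0.58 (adjusted p = 0.00034) against sgControl and 3.19 (adjusted p = 2.1e-06) against the other gene-targeting libraries. *Syne1*, which encodes nesprin-1, its closest relative, fell from 37.6 to 41.8 CPM to 12.8 to 16.2 CPM (log2 fold change -1.42 ± 0.25, adjusted p = 0.00010). *Syne1* was also below all sgControl libraries in sgCbfa2t2, at 26.1, 16.7 and 26.6 CPM. The same held in sgCbfa2t3, at 23.6, 14.8 and 29.4 CPM, where it overlapped sgZbtb1. In sgLmo2 it was at 30.0, 38.6 and 37.8 CPM. Of 16 tested nesprins, SUN-domain proteins and lamina components, *Syne2* was the 1 called higher and *Syne1* the 1 called lower, and the median of the list was 0.07.

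*D1Ertd622e* (chr1:97606318-97662074) was at 0, 2.31 and 0.586 CPM in sgControl and at 15.6, 14.8 and 6.87 CPM in sgZbtb1 (2.87 ± 0.60, adjusted p = 0.00093). *Tspan3*, a tetraspanin that organises membrane domains, rose from 26.7, 27.8 and 35.8 CPM to 93.9, 87.5 and 67.8 CPM, with every other library of the series at 41.8 CPM or below (1.43 ± 0.20, adjusted p = 5.6e-07). *Cltb*, the clathrin light chain b of coated vesicles, rose from 31.4, 44.6 and 46.9 CPM to 80.4, 101 and 125 CPM (1.29 ± 0.18, adjusted p = 2.9e-07). For both genes the 3 sgZbtb1 libraries were the 3 highest of all 15. *Phf19*, a Polycomb-like subunit that brings PRC2 to chromatin, was at 5.81, 2.31 and 6.45 CPM and at 11.7, 21.99 and 30.0 CPM (1.92 ± 0.39, adjusted p = 0.00071). *Rpph1*, the RNA component of RNase P, rose by a log2 fold change of 1.27 (adjusted p = 0.0017). It is not an mRNA, which is what the method captures, so its level is uncertain.

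The calls of these 6 genes were kept when any of the 6 libraries was left out. The same was not so for 8 others that the rule chose among the genes that rose. *Lrfn1*, a neuronal adhesion protein (1.37), lost its call without sgControl replicate 2, and *Coprs*, a histone-binding partner of the methyltransferase Prmt5 (1.31), without sgControl replicate 3 or sgZbtb1 replicate 3. *H2-Oa*, a class II chain that modulates peptide loading (1.27), lost it without sgControl replicate 1 or 3 or sgZbtb1 replicate 3, and *D630045J12Rik* (1.48) without sgControl replicate 1 or sgZbtb1 replicate 2 or 3. *Gramd3* (1.62) kept its call only without sgControl replicate 1, and *Plekha6* (1.42) only without sgControl replicate 2. *Ajap1*, an adherens junction protein (1.39), kept it without sgControl replicate 2 or sgZbtb1 replicate 1, and *Pdss1*, which makes the side chain of coenzyme Q (1.34), without sgControl replicate 1 or sgZbtb1 replicate 1. Against the other gene-targeting libraries, 8 of the 14 genes were called higher. *H2-Oa* was not: its log2 fold change there was -0.19 (adjusted p = 0.82), and sgControl was the group that stood apart, with 10.5 to 21.3 CPM in the other gene-targeting libraries.

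**Figure D2:**
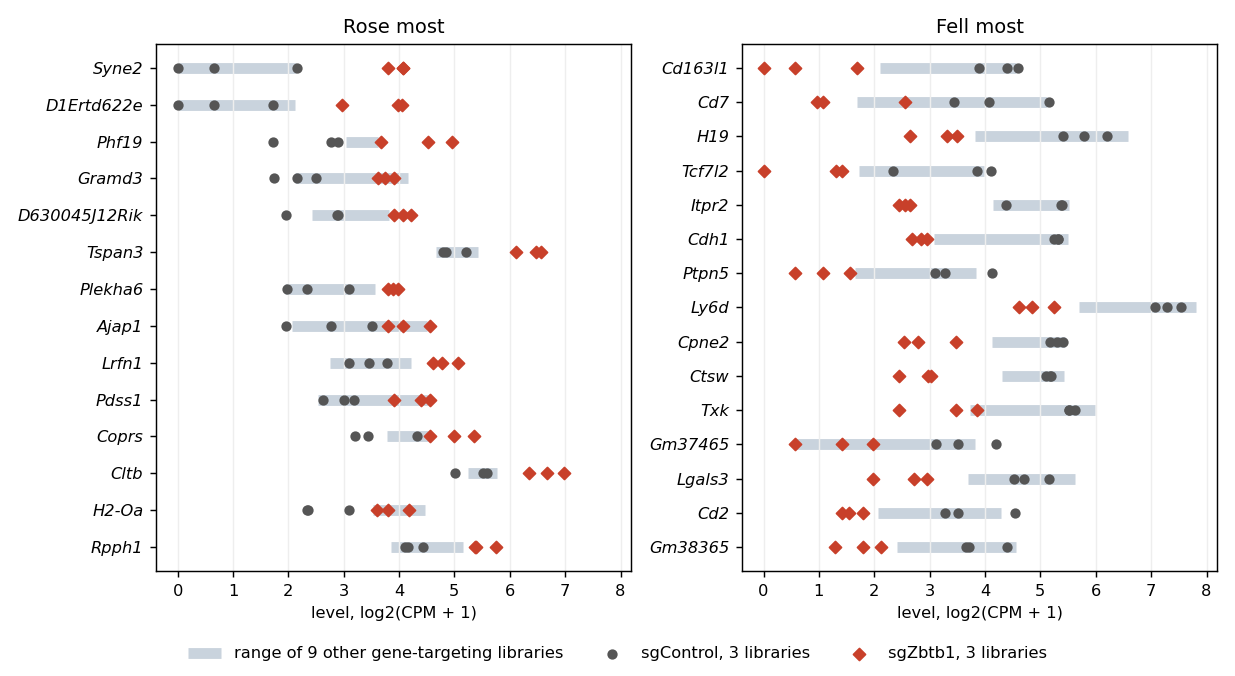
Level as log2(CPM + 1) (horizontal axis) of the 14 genes that rose most and the 15 that fell most by the naming rule, 1 row a gene. Grey dots are the 3 sgControl libraries, red diamonds the 3 sgZbtb1 libraries and pale bars the range of the 9 other gene-targeting libraries; the diamonds lie outside that range for 10 of the 14 and 12 of the 15 genes.

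Among the 15 genes that fell most, *Cd163l1*, a scavenger receptor with cysteine-rich repeats, was at 23.2, 13.9 and 19.9 CPM in sgControl and at 2.23, 0 and 0.491 CPM in sgZbtb1 (-3.54 ± 0.45, adjusted p = 2.6e-08). *Ly6d*, a GPI-anchored protein used to divide lymphoid progenitors by their B-lineage bias, was at 134, 155 and 186 CPM and at 27.9, 36.8 and 23.6 CPM (-2.40 ± 0.15, adjusted p = 1.3e-19). *Cd163l1* and *Ly6d* were also called lower against the other gene-targeting libraries (-2.64 and -1.81). Within these, *Ly6d* was lowest in sgCbfa2t3, at 55.2, 67.4 and 51.0 CPM, below all sgControl libraries. *Cd7*, an immunoglobulin-family receptor of T and NK cells, was at 9.87, 34.7 and 15.8 CPM and at 1.12, 0.956 and 4.91 CPM (-2.69, adjusted p = 3.8e-05). In sgCbfa2t3 it was at 3.75, 6.28 and 2.22 CPM, which overlaps sgZbtb1, and in sgLmo2 at 13.6 to 33.7 CPM. *Cd2*, an adhesion receptor, fell by 2.19 on the log2 scale.

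*Itpr2* encodes a receptor for inositol trisphosphate that releases calcium from the endoplasmic reticulum. It was at 19.7, 40.5 and 41.0 CPM in sgControl and at 4.47, 5.26 and 4.91 CPM in sgZbtb1 (-2.49 ± 0.29, adjusted p = 2.1e-09). *Txk*, a Tec-family kinase, was at 44.7, 48.6 and 44.6 CPM and at 10.1, 13.4 and 4.42 CPM (-2.30 ± 0.28, adjusted p = 7.0e-09). *Cdh1*, E-cadherin, was at 38.9, 38.8 and 36.9 CPM and at 6.14, 6.69 and 5.40 CPM (-2.47 ± 0.28, adjusted p = 2.3e-09). In sgCbfa2t3 it was at 13.9, 7.42 and 18.3 CPM. For *Itpr2* and *Cdh1* the sgZbtb1 libraries also lay below the 9 others, whereas for *Txk* the other libraries started at 12.3 CPM. *Ptpn5*, a tyrosine phosphatase (-2.43), *Ctsw*, the protease cathepsin W of cytotoxic lymphocytes (-2.34), *Cpne2*, a calcium-dependent membrane-binding copine (-2.36), and *Lgals3*, the lectin galectin-3 (-2.24), fell by similar amounts. *Tcf7l2* (TCF4), a DNA-binding effector of Wnt signaling, was at 16.3, 4.05 and 13.5 CPM and at 1.68, 0 and 1.47 CPM (-2.53 ± 0.47, adjusted p = 0.00018).

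The calls of all 15 genes that fell most were kept when any of the 6 libraries was left out, and 14 of the 15 were also called lower against the other gene-targeting libraries. The exception was *Gm37465* (-2.29 against sgControl, -1.11 with adjusted p = 0.14 against the others). *Gm37465* and *Gm38365* (-2.19) are transcripts of the provisional biotype TEC that lie on the same strand within *Maml3* and *Dgkd*, so their reads cannot be told apart from those of the host genes. The TEC biotype made up 26 of the 340 genes that fell and 0 of the 216 that rose, beside 462 of the 11601 tested.

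Zbtb1 ChIP-seq peaks in LPs were assigned to several of these genes as the nearest gene. Of the 14 genes that rose most, 6 had at least 1 peak for which they were the nearest gene, and for 3 of them, *D1Ertd622e*, *Cltb* and *Tspan3*, a peak was annotated at the promoter. Of the 15 that fell most, 5 had a peak and 0 a promoter peak. Over all genes, 17.1% of those called higher, 13.5% of those called lower and 12.4% of those tested had an annotated promoter peak. The *Cltb* peak was 53 bases from the start site with a score of 51.2, the *D1Ertd622e* peak 41 bases with a score of 27.1, and the *Tspan3* promoter peak 68 bases with a score of 106.9. A second *Tspan3* peak, annotated as intron and far upstream at -62600 bases from the start site, had a score of 676.5. *Itpr2* had 3 peaks and *Tcf7l2* 2, none of them at a promoter. The score is the authors' normalized tag density, from peaks found in both ChIP replicates, and no peak has an error or a depth.

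The sequences below show the central 200 bases of the highest-scoring peak of the 4 genes with the largest changes, among those named above that had a peak and a window outside exons, on the plus strand of mm10. Capitals mark every match to TGTGGT, the core of the Runx site, or to TGGTGGT, on either strand. The 2 strings can share bases.
*Syne2*, intron, chr12:75837603-75837802, score 16.1: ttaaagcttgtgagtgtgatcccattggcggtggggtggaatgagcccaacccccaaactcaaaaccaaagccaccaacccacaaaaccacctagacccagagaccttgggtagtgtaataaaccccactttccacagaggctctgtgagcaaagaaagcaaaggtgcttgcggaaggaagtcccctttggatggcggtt
*Tcf7l2*, intron, chr19:55768958-55769157, score 63.8: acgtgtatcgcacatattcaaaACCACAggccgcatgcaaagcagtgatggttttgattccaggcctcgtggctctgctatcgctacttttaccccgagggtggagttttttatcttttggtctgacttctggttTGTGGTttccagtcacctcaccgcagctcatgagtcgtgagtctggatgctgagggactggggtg
*Itpr2*, intron, chr6:146452499-146452698, score 57.8: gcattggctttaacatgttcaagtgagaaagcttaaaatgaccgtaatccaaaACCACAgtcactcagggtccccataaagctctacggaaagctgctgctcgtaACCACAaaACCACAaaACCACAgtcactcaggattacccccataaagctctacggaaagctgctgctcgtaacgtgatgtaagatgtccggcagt
*Cpne2*, annotated as intron, chr8:94519856-94520055, score 48.4: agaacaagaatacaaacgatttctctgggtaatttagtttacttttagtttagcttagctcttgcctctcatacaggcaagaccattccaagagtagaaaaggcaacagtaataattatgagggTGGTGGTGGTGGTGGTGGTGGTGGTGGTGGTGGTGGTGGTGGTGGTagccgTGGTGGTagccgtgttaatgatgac

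The *Tcf7l2* window held 2 Runx cores and the *Itpr2* window 4, whereas the *Syne2* window held neither string. The *Cpne2* window, which lies before the start site of the gene, held 15 overlapping matches to TGGTGGT in a simple repeat. Over the 200 central bases of all peaks on assembled chromosomes, 41.3% held the Runx core and 15.8% held TGGTGGT. A match describes letters and not a bound site. The peaks come from cells with Zbtb1, and no ChIP-seq of sgZbtb1 cells was used here.

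Over all called genes, 34.7% of those higher (75 of 216) and 39.4% of those lower (134 of 340) had a Zbtb1 peak assigned to them as nearest gene, beside 27.3% of all genes tested. With peaks within 10 kb of the start site the shares were 29.2%, 29.1% and 22.3%. The share rose with the level of the gene among all genes tested, from 17.4% at a mean of 1 to 10 CPM to 38.9% above 300 CPM. Within a mean of 100 to 300 CPM the shares were 35.7% for higher genes, 41.5% for lower genes and 34.9% for all, and within 30 to 100 CPM 37.8%, 45.0% and 32.2%. Lower genes had shares of 25.4% at 1 to 10 CPM, 40.5% at 10 to 30 CPM and 42.9% above 300 CPM. Those of all genes at these levels were 17.4%, 27.6% and 38.9%. Higher genes above 300 CPM had a share of 30.4%, under that of all genes at that level. These shares are descriptions without a test.

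Gene lists are described below by their calls and their median log2 fold change, to be read against 1.86% called higher, 2.93% called lower and a median of -0.03 over all genes tested.

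**Figure D3:**
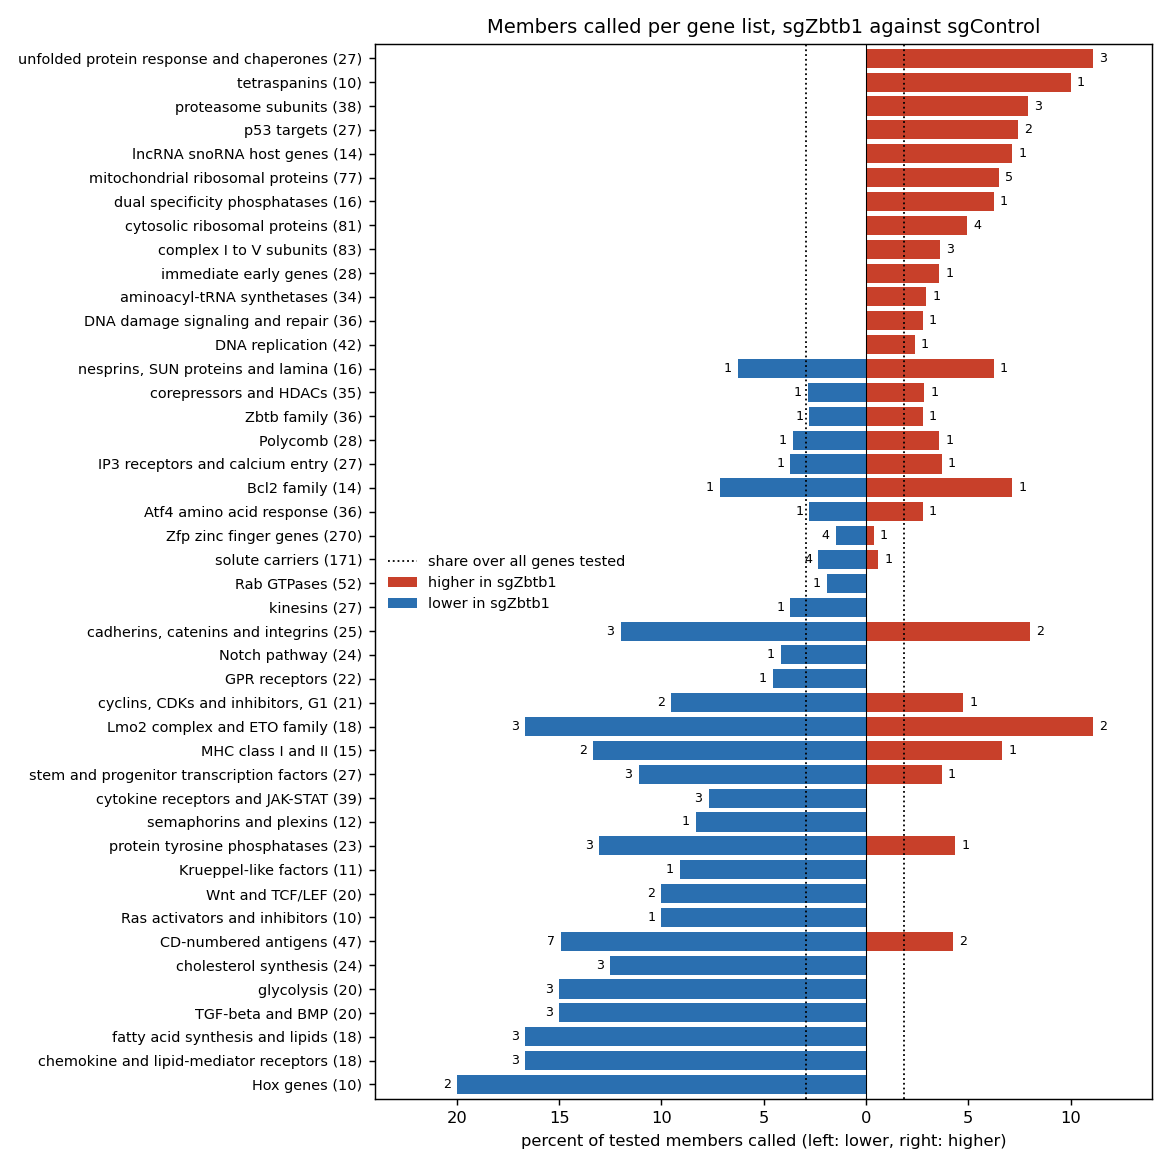
Percent of tested members called higher (right, red) and lower (left, blue) in sgZbtb1 against sgControl for the lists and families with at least 10 tested members and at least 1 call, except 1 family that is not shown; the number tested is in parentheses and the number called stands at each bar. Dotted lines mark the shares over all genes tested, 1.86% and 2.93%; receptor, lipid and Hox lists extend to the left, and proteasome and mitochondrial ribosome lists to the right.

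Among surface receptors, 7 of 47 CD-numbered antigens were lower and 2 higher. *Cd24a*, the heat-stable antigen of early lymphoid cells, was at 120, 133 and 93.8 CPM in sgControl and at 52.0, 44.0 and 32.9 CPM in sgZbtb1 (-1.42 ± 0.14, adjusted p = 7.1e-11). *Cd47*, which inhibits phagocytosis, fell by 0.31 on the log2 scale, and *Cd247*, the zeta chain of the T cell receptor complex, by 2.24. *Cd276* (-1.98), an immune checkpoint ligand, was at 0 in the 3 sgZbtb1 libraries and at 2.90, 1.74 and 4.69 CPM in sgControl. The 2 that rose were *Cd93* (0.52, adjusted p = 0.00017) and *Cd34* (0.53, adjusted p = 0.0012). With DESeq2 *Cd34* was not called (adjusted p = 0.065). *Cd34* was at 313, 237 and 225 CPM and at 361, 378 and 367 CPM, without overlap. The call of *Cd276* was lost whichever of the 6 libraries was left out, that of *Cd247* without sgZbtb1 replicate 1, and that of *Cd47* without sgControl replicate 1 or sgZbtb1 replicate 3.

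Of 18 chemokine and lipid-mediator receptors, 3 were lower and 0 higher. *Ccr9*, the receptor for the thymic and gut chemokine Ccl25, was at 855, 910 and 1003 CPM in sgControl and at 308, 378 and 392 CPM in sgZbtb1, a 2.57-fold lower mean (-1.36 ± 0.10, adjusted p = 2.7e-16). All sgZbtb1 values lay below the 497 to 1126 CPM of the other gene-targeting libraries. *Lztfl1*, which overlaps *Ccr9* on the opposite strand, was also lower (-0.98), and the strand setting of the counting is not given in the sources used here. *Cxcr5*, the receptor that guides cells to B cell follicles (-1.48), and *P2ry10*, a lysophospholipid receptor (-0.66), fell as well. *Cxcr5* lost its call without sgControl replicate 3, and *P2ry10* kept it only without sgZbtb1 replicate 1. The edgeR and DESeq2 tests each called 3 members of the list.

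Of 39 cytokine receptors and JAK-STAT components, 3 were lower and 0 higher, with a median of -0.17. *Il2rb*, the β chain shared by the IL-2 and IL-15 receptors, was at 61.6, 50.9 and 38.1 CPM and at 18.99, 13.9 and 8.84 CPM (-1.81 ± 0.23, adjusted p = 1.9e-08). *Pim2*, a survival kinase induced by cytokines, was at 130, 189 and 205 CPM and at 84.9, 116 and 101 CPM (-0.77, adjusted p = 0.00053). The groups lay apart for both. *Kit*, the SCF receptor, fell by 1.14 on the log2 scale, a call kept only without sgZbtb1 replicate 1. Among 9 TNF receptor family members, *Tnfrsf9* (4-1BB), a costimulatory receptor, was the only call: it was at 3.48, 9.26 and 7.04 CPM in sgControl and at 0 in the 3 sgZbtb1 libraries. Its mean was at least 3.93-fold lower, taking 3 reads per library as the floor.

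Cell adhesion genes moved in both directions, with 3 lower and 2 higher of 25 tested genes of the list of cadherins, catenins and integrins, which also holds other adhesion molecules. Beside *Cdh1*, *Jup* (plakoglobin, which links cadherins to the cytoskeleton) fell by 1.18 on the log2 scale (adjusted p = 0.0078), a call lost without sgZbtb1 replicate 3. *Itga4*, the α4 integrin used for homing to marrow and gut, was at 344, 287 and 265 CPM and at 423, 446 and 445 CPM (0.56 ± 0.10, adjusted p = 5.6e-05). *Cd34* and *Cd47* were the other calls of the list. Of 12 semaphorins and plexins, *Sema4a* was lower (-0.78, adjusted p = 0.00024) and none was higher. Among 10 tetraspanins *Tspan3* was the only call, and among 4 Ly6 family members *Ly6d*.

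Classical MHC class I genes were lower: *H2-K1* was at 242, 246 and 212 CPM in sgControl and at 126, 128 and 139 CPM in sgZbtb1 (-0.82 ± 0.11, adjusted p = 5.0e-08), and *H2-D1* fell by 0.58 on the log2 scale (adjusted p = 5.0e-05). Both also fell against the other gene-targeting libraries (-0.72 and -0.50). With *H2-Oa*, these were the calls among 15 tested MHC genes, whose median was -0.23. Of 28 interferon-stimulated genes, 0 were called by limma, edgeR or DESeq2 and 3 had an unadjusted p under 0.05. *Bst2* (tetherin) stood at 165 CPM in sgControl and 209 CPM in sgZbtb1 (adjusted p = 0.082), and the median of the list was -0.03.

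Of 23 protein tyrosine phosphatases, 3 were lower and 1 higher. *Ptpn1* (PTP1B) was at 357, 393 and 444 CPM and at 213, 231 and 238 CPM (-0.80 ± 0.10, adjusted p = 4.6e-08). *Ptprc* (CD45) fell by 0.28 on the log2 scale, a call kept only without sgControl replicate 3, and *Ptpn7* rose by 0.39, kept only without sgZbtb1 replicate 3. Of 10 Ras activators and inhibitors, *Rasgrp2*, an exchange factor for Rap1, was lower (-0.77, adjusted p = 0.0019). Of 27 IP3 receptors, calcium channels and pumps, *Itpr2* was lower and *Atp2b4*, a plasma membrane calcium pump, higher (0.64, adjusted p = 0.0055), the latter not without sgControl replicate 2 or sgZbtb1 replicate 1. None of 8 phospholipases C and D was called by the 3 tests, with 1 at an unadjusted p under 0.05. Of 28 immediate early genes, *Dusp6*, an ERK phosphatase, was the only call (0.61, adjusted p = 0.047), and it was lost without sgControl replicate 2 or 3 or sgZbtb1 replicate 1 or 3.

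Of 18 tested members of the Lmo2 complex and ETO family, with their partners, 2 were higher and 3 lower. *Runx1*, a core factor of blood development, was at 334, 324 and 303 CPM in sgControl and at 178, 186 and 175 CPM in sgZbtb1, a 1.78-fold lower mean (-0.83 ± 0.10, adjusted p = 4.6e-09). The other gene-targeting libraries were between 256 and 351 CPM, all above sgZbtb1. *Lyl1*, a basic helix-loop-helix partner of Lmo2, was at 156, 167 and 155 CPM and at 232, 240 and 213 CPM (0.51 ± 0.11, adjusted p = 0.00092), with the other gene-targeting libraries between 160 and 216 CPM. *Zbtb1* was the second call higher. *Runx2* (-0.75, adjusted p = 0.029), a relative of *Runx1*, and *Lmo4* (-0.59, adjusted p = 0.0034), another LIM-only adaptor, were lower. *Runx2* kept its call only without sgControl replicate 1, and *Lmo4* lost it without sgControl replicate 3 or sgZbtb1 replicate 1 and with DESeq2 (adjusted p = 0.11).

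**Figure D4:**
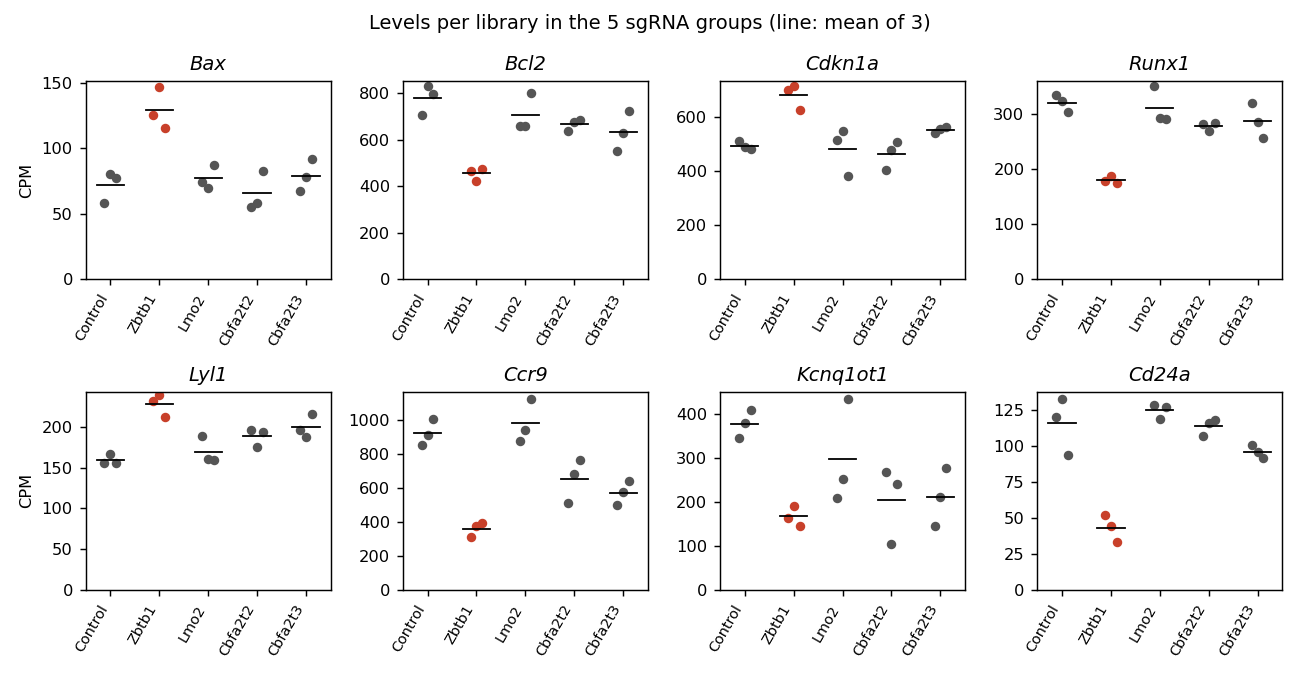
CPM (vertical axes, from 0) of 8 named genes in each of the 3 libraries of the 5 sgRNA groups, with a line at the mean of the 3; sgZbtb1 is red. Every sgZbtb1 library lies above all others for *Bax* and *Cdkn1a* and below all others for *Bcl2*, *Runx1*, *Ccr9* and *Cd24a*, whereas for *Lyl1* and *Kcnq1ot1* they lie apart from sgControl but overlap other gene-targeting libraries.

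Of 27 stem and progenitor transcription factors, 3 were lower and 1 higher. *Ebf1* transcripts, whose 3′ end can still be read in cells without functional Ebf1, were at 338, 305 and 366 CPM and at 221, 209 and 221 CPM (-0.62 ± 0.10, adjusted p = 8.1e-06). *Hoxa9*, a homeobox factor of stem and progenitor cells, was at 670, 696 and 716 CPM and at 549, 513 and 566 CPM (-0.36 ± 0.08, adjusted p = 0.0027). With *Hoxa5* (-0.67, adjusted p = 2.4e-05), 2 of 10 tested Hox genes were lower. *Hoxa3* and *Hoxaas3* overlap *Hoxa5*, so its reads are uncertain. *Sox6*, an HMG-box factor, was at 43.6, 43.4 and 56.9 CPM and at 15.1, 17.2 and 14.7 CPM (-1.55 ± 0.21, adjusted p = 2.1e-07), the only call among 4 members of the Sox and related developmental families. *Klf7* was the only call among 11 Krueppel-like factors (-0.53, adjusted p = 0.0089), lost without sgControl replicate 2 or sgZbtb1 replicate 3.

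Within the Zbtb family, *Zbtb20* was lower, from 69.1, 52.7 and 60.4 CPM to 22.3, 27.3 and 24.1 CPM (-1.27 ± 0.21, adjusted p = 1.8e-05), and *Zbtb1* higher, with 34 of 36 not called. Of 270 Zfp zinc finger genes, 4 were lower and 1 higher, shares under those of all genes tested. *Zfp961* (-1.05) and *Zfp617* (-0.80) each lost the call without sgControl replicate 3, as did the 3 other calls of the family, *Zfp85*, *Zfp169* and *Zfp706*.

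Of 20 Wnt and TCF/LEF genes, 2 were lower: *Tcf7l2* and the Groucho corepressor *Tle1*, which was at 4.64, 3.47 and 5.86 CPM and at 0, 0.478 and 0 CPM (-2.29, adjusted p = 0.0088, lost without sgControl replicate 3). Of 20 TGF-β and BMP genes, 3 were lower and 0 higher. *Tgfbr1*, the type I receptor, was at 36.6, 26.05 and 34.6 CPM and at 13.97, 12.9 and 15.7 CPM (-1.13 ± 0.27, adjusted p = 0.0057). *Id2*, an inhibitor of E proteins, fell by 0.60 on the log2 scale, lost without sgControl replicate 2 or sgZbtb1 replicate 1. *Tgfb3*, a ligand, was at 2.90, 4.05 and 3.52 CPM and at 0, 0.478 and 0 CPM, a call lost without sgControl replicate 2 or 3 or sgZbtb1 replicate 1 or 3. Of 24 Notch pathway genes, the coactivator *Maml3* was the only call (-0.64), lost without sgControl replicate 2 or 3 or sgZbtb1 replicate 3. *Notch1* stood at 156 CPM and 124 CPM (adjusted p = 0.22).

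Of 28 Polycomb genes, *Phf19* was higher and *Phc3*, a PRC1 subunit, lower (-0.70, adjusted p = 0.028). Of 35 corepressors and histone deacetylases, *Trim28* (KAP1), the partner of KRAB zinc finger proteins, was higher (0.26, adjusted p = 0.031) and *Hdac5* lower (-0.75, adjusted p = 0.0079). *Phc3* lost its call without sgControl replicate 2 or 3 or sgZbtb1 replicate 3, *Hdac5* without sgControl replicate 2 or sgZbtb1 replicate 1, and *Trim28* kept it only without sgZbtb1 replicate 2. Among 13 DNA methylation genes limma, edgeR and DESeq2 called 0, with 2 at an unadjusted p under 0.05, and among 15 histone genes with polyadenylated transcripts they called 0, with 3.

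Imprinted transcripts, which are read from the allele of a single parent, were lower in 4 of the 9 that could be tested, and 0 were higher; the other 19 of the list were too low. *H19*, a maternally expressed lncRNA, was at 41.2, 72.3 and 54.5 CPM in sgControl and at 8.94, 5.26 and 10.3 CPM in sgZbtb1 (-2.64 ± 0.25, adjusted p = 9.4e-12). *Kcnq1ot1*, a paternally expressed antisense lncRNA, was at 344, 380 and 409 CPM and at 164, 191 and 145 CPM (-1.18 ± 0.18, adjusted p = 6.3e-06). *Igf2r*, a maternally expressed receptor that clears Igf2, was at 253, 216 and 218 CPM and at 177, 140 and 111 CPM (-0.70 ± 0.11, adjusted p = 1.6e-05). The groups lay apart for *Kcnq1ot1* and *Igf2r*. Against the other gene-targeting libraries *H19* (-2.26, adjusted p = 1.4e-12) and *Igf2r* (-0.65) were lower. *H19* was at 15.5, 13.1 and 27.1 CPM in sgCbfa2t3, also below all sgControl libraries, and at 67.3 to 94.2 CPM in sgLmo2. Against the same 9 libraries *Kcnq1ot1* had a log2 fold change of -0.42 (adjusted p = 0.11). *Airn*, antisense to *Igf2r*, was lower against sgControl (-1.20, adjusted p = 0.017), a call lost without sgControl replicate 2 or 3 or sgZbtb1 replicate 1 or 2. Against the other gene-targeting libraries, which were at 10.3 to 24.1 CPM, *Airn* had a log2 fold change of -0.41 (adjusted p = 0.48, limma). *Airn* and *Igf2r* overlap on opposite strands and their reads may be mixed.

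Of 27 tested p53 targets, 2 rose and 0 fell, and the median of the list was 0.11. *Bax*, which permeabilises the mitochondrial outer membrane, was at 58.1, 79.9 and 76.8 CPM in sgControl and at 126, 147 and 115 CPM in sgZbtb1, a 1.81-fold higher mean (0.85 ± 0.16, adjusted p = 0.00015). *Cdkn1a* (p21), which arrests the cycle before S phase, was at 508, 486 and 478 CPM and at 697, 715 and 623 CPM (0.46 ± 0.09, adjusted p = 0.00058). In both genes every sgZbtb1 library was above all 12 others, and both were called against the other gene-targeting libraries (0.81 and 0.45). In the Bcl2 family, 1 of 14 rose (*Bax*) and 1 fell. That was *Bcl2*, which opposes Bax, at 706, 832 and 797 CPM and at 467, 423 and 475 CPM, a 1.71-fold lower mean (-0.77 ± 0.09, adjusted p = 1.6e-09). Of 19 caspases and death receptors, limma and edgeR called 0 and DESeq2 1, with 4 at an unadjusted p under 0.05.

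Cell cycle lists were largely without calls. Of 36 mitosis genes 0 were called by limma, edgeR or DESeq2, with 6 at an unadjusted p under 0.05 and a median of 0.08. *Mki67* stood at 605 CPM and 554 CPM and *Top2a* at 2148 CPM and 2312 CPM. Of 42 DNA replication genes, 1 was higher: *Rpa2*, a subunit of the single-strand binding protein RPA (0.34, adjusted p = 0.029), a call lost whichever of the 6 libraries was left out. Among 21 G1 cyclins, kinases and inhibitors, *Cdkn1a* was higher and *E2f2* and *Cdkn1b* lower. *E2f2*, an E2F activator, was at 76.1, 74.1 and 83.3 CPM and at 53.6, 52.1 and 40.3 CPM (-0.68 ± 0.15, adjusted p = 0.0021). *Cdkn1b* (p27), at -0.60, also lost its call whichever library was left out. Of 36 DNA damage and repair genes *Trim28* was the only call.

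Of 77 mitochondrial ribosomal proteins, 5 were higher and 0 lower, with a median of 0.23, and their summed level was 4854 to 4904 CPM in sgControl and 5691 to 5897 CPM in sgZbtb1. *Mrpl47* rose from 45.3, 52.7 and 45.7 CPM to 91.1, 84.6 and 74.6 CPM (0.79 ± 0.16, adjusted p = 0.00097), a call kept whichever library was left out. The others were less stable: *Mrps5*, *Mrpl2* and *Mrpl12* lost the call without sgControl replicate 3, *Mrpl42*, *Mrps5* and *Mrpl12* without sgZbtb1 replicate 3, and *Mrpl42*, *Mrps5* and *Mrpl2* without sgControl replicate 1. Of 38 proteasome subunits, 3 were higher and 0 lower, with a median of 0.20. *Psmb7* had the largest change (0.50, adjusted p = 0.0079). *Psmc3* lost the call whichever library was left out, and *Psmd3* also without sgControl replicate 2 or 3. All 3, *Psmb7*, *Psmd3* and *Psmc3*, lost it without sgControl replicate 1, with adjusted p from 0.054 to 0.081, and without sgZbtb1 replicate 3, with adjusted p from 0.12 to 0.24. Of 83 nuclear-encoded subunits of complexes I to V, 3 were higher (*Ndufa12*, *Ndufa10* and *Cox6c*, 0.32 to 0.48) and 0 lower, with a median of 0.15. Each of these 3 lost its call without sgZbtb1 replicate 3 or, for *Ndufa12*, without sgZbtb1 replicate 1 or sgControl replicate 1 or 3; *Ndufa10* also lost it without sgControl replicate 1 or 3. Of 81 cytosolic ribosomal proteins, 4 were higher, among them *Rpl36al* (0.79, adjusted p = 0.0022) and *Rpl13* (0.34, adjusted p = 0.0022), with a median of 0.02. The other calls, *Rpl14* and *Rpl8*, were both lost when any library except sgZbtb1 replicate 1 was left out, and *Rpl14* without that library too. Ribosomal protein genes have many near-identical pseudogenes, so their counts are uncertain.

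The second reference gave other counts for these lists. Against the other gene-targeting libraries, 4 mitochondrial ribosomal proteins and 3 proteasome subunits were higher and 0 lower, but 0 nuclear-encoded subunits of complexes I to V were higher and 2 lower, and 1 cytosolic ribosomal protein was higher and 6 lower. The medians were 0.14, 0.10, 0.03 and -0.08. Chaperones had 3 of 27 called higher and 0 lower against sgControl. *Hsp90aa1*, an inducible cytosolic chaperone, was at 1038, 1035 and 1019 CPM and at 1350, 1361 and 1355 CPM (0.39 ± 0.07, adjusted p = 7.9e-05). *Hspd1* (0.35), the mitochondrial chaperonin, lost its call without sgControl replicate 3 or sgZbtb1 replicate 1, and *Hsp90ab1* (0.23) kept it only without sgZbtb1 replicate 1. Of 36 Atf4 targets, *Gars* was higher (0.45) and *Herpud1* lower (-0.54). *Gars*, the glycyl-tRNA synthetase, was the only call among 34 aminoacyl-tRNA synthetases. It was lost without sgControl replicate 2 or sgZbtb1 replicate 1 or 3, and that of *Herpud1* without sgControl replicate 3.

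Of 8 tested transcripts encoded by the mitochondrial genome, 5 were lower and 0 higher. *mt-Nd4*, a complex I subunit, was at 5624, 4605 and 4466 CPM in sgControl and at 3765, 3019 and 3582 CPM in sgZbtb1 (-0.50 ± 0.08, adjusted p = 9.0e-06). *mt-Cytb*, of complex III, was at 3512, 3251 and 3361 CPM and at 2794, 2468 and 2580 CPM (-0.37 ± 0.07, adjusted p = 0.00014). All mitochondrial transcripts together took 6.72% to 6.89% of the reads in sgControl, 5.42% to 6.48% in sgZbtb1 and 5.03% to 6.36% in the other gene-targeting libraries, so that sgControl was the group with the highest share. Against the other gene-targeting libraries 3 of the 8 were lower. The call of *mt-Nd1* was lost without sgZbtb1 replicate 2, and that of *mt-Co1* whichever library was left out. The part of this share in the smaller changes above was not tested.

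Calls among lipid and sugar metabolism genes were lower only, against sgControl. Of 24 cholesterol synthesis genes, 3 were lower, 10 had an unadjusted p under 0.05 and the median was -0.29. *Hmgcs1*, which makes the HMG-CoA of the mevalonate pathway, was at 200, 187 and 207 CPM and at 130, 126 and 132 CPM (-0.61 ± 0.11, adjusted p = 0.00014). *Hsd17b7*, a later enzyme of the pathway, fell by 0.86 on the log2 scale. Of 18 fatty acid and lipid genes, 3 were lower. *Acsl3*, which activates fatty acids, was at 85.4, 88.6 and 85.0 CPM and at 53.1, 48.8 and 52.5 CPM (-0.74 ± 0.15, adjusted p = 0.00064). *Cpt1a* (-0.61) and *Fads2* (-0.36) both lost the call without sgControl replicate 2 or sgZbtb1 replicate 2 or 3. *Utp14b* lies within *Acsl3* on the same strand and was also lower (-1.16). Of 20 glycolysis genes 3 were lower, namely the lactate exporter *Slc16a3* (-0.94), *Gapdh* (-0.57) and *Aldoa* (-0.28), whose groups overlapped, and *Gapdh* and *Aldoa* have many pseudogenes. The median was -0.20.

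Most of these metabolic calls depended on single libraries. *Hsd17b7* lost its call without sgControl replicate 1 or 3 or sgZbtb1 replicate 1 or 3, and *Slc16a3* without sgControl replicate 2 or sgZbtb1 replicate 3. *Gapdh* lost it without sgControl replicate 1 or 3 or sgZbtb1 replicate 2 or 3, and *Aldoa* without sgControl replicate 1 or 2 or sgZbtb1 replicate 2 or 3. Of 171 solute carriers, 4 were lower and 1 higher. *Slc44a2*, a choline transporter, was at 63.3, 74.1 and 78.0 CPM and at 39.7, 44.0 and 41.2 CPM (-0.77 ± 0.17, adjusted p = 0.0020), a call kept whichever library was left out.

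Several large families had no more than 1 call. Of 52 Rab GTPases *Rab5b* was lower (-0.91), of 27 kinesins *Kif21b* (-0.87) and of 22 GPR receptors *Gpr20* (-2.13), each of which lost its call without 2 or 3 of the single libraries. *Rab5b* lost it without sgControl replicate 3 or sgZbtb1 replicate 1, *Kif21b* without sgControl replicate 1 or 2 or sgZbtb1 replicate 2, and *Gpr20* without sgControl replicate 3 or sgZbtb1 replicate 2. Of 16 dual specificity phosphatases, *Dusp6* was the only call. Among 4 Gimap genes and 2 killer lectin receptors, limma, edgeR and DESeq2 called 0, and 0 had an unadjusted p under 0.05.

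The gene that rose furthest among those named, *Syne2*, lies on the same chromosome and strand as *Zbtb1*, and its end is 259 kb before the start of *Zbtb1*. Within 2000 kb on either side, 19 genes were tested, of which *Syne2* and *Zbtb1* were called higher and 0 lower. *Mthfd1*, a folate-cycle enzyme that lies between them, was at 55.1 CPM in sgControl and 77.7 CPM in sgZbtb1 (log2 fold change 0.48 ± 0.18, adjusted p = 0.097; against the other gene-targeting libraries 0.46, adjusted p = 0.047). *Hspa2*, 7.23 kb after the end of *Zbtb1*, was at 8.91 CPM and 15.6 CPM (adjusted p = 0.39), and *Plekhg3*, 134 kb after it, at 19.6 CPM and 28.7 CPM (adjusted p = 0.29). Much further away, *Gphn*, 1829 kb after *Zbtb1*, was at 12.2 CPM and 22.8 CPM (0.85 ± 0.28, adjusted p = 0.066, limma). *Gm48226*, 1825 kb after *Zbtb1*, was at 10.1 CPM and 6.93 CPM (-0.46, adjusted p = 0.58, limma). *Zbtb25*, which starts next to *Zbtb1* on the other side, was at 10.2 CPM and 8.69 CPM (adjusted p = 0.996). *A430103D13Rik*, an unclassified transcript 24.9 kb before *Zbtb1*, was at 12.2 CPM and 7.12 CPM (-0.77, adjusted p = 0.25). The median log2 fold change of the 18 neighbours was 0.11.

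**Figure D5:**
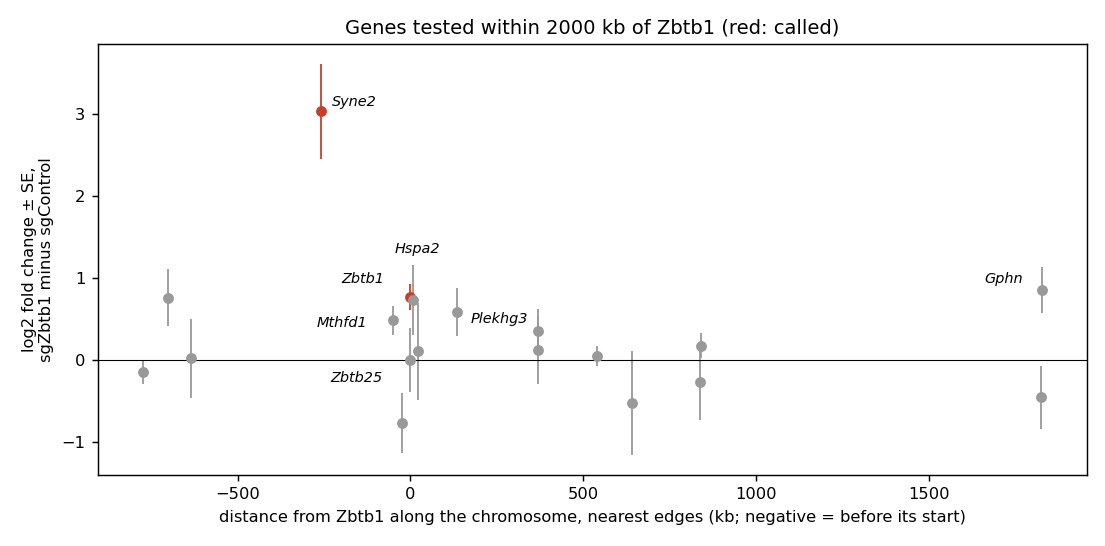
Log2 fold change ± SE of sgZbtb1 minus sgControl (vertical axis) for the 19 genes tested within 2000 kb of *Zbtb1*, against their distance from it in kb (horizontal axis, nearest edges). Red points are *Syne2*, 259 kb before the start, and *Zbtb1* at 0; the other genes were not called.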

How the data were processed

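QuantSeq 3′ mRNA libraries from 5 sgRNA groups with 3 replicates each were used. The authors trimmed reads of 75 bases with fastp, aligned them to mm10 with STAR and scaled each library to a common total (CPM). The deposited values, named TPM by the authors, were not divided by length and are CPM. Whole reads were recovered for 100% of values up to 100 CPM in each library (tolerance 0.1 read). A line without an identifier (5.81e-05% of sgControl replicate 1) was left out. For the Zbtb1 ChIP-seq, per the labels and the study's methods, the authors mapped reads with Bowtie 1.1.1 and deposited a peak score from HOMER for peaks found in both replicates.

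The test was limma 3.58.1 (R 4.3.3; lmFit, eBayes with trend) on log2(CPM + 1) of the members, with a threshold of 0.05 on the adjusted p. The study's rule on unlogged values was an alternative, as were edgeR 4.0.16 (quasi-likelihood) and DESeq2 1.42.0 on recovered reads, other pseudocounts, filters and scalings, thinning and leaving out libraries. The steps were tested on simulated data.

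The members, the 31 gene lists, 8 marker lists and 27 families were chosen with earlier results of these data known. Named were *Zbtb1*; up to 15 genes that rose and 15 that fell most among called genes without overlap and with a mean above 10 CPM in either group; up to 6 called members per list with the largest change, and up to 3 abundant members where fewer than 2 were called. Some genes and 1 family that these rules chose are not described here, and 1 of the genes that rose most is not counted in any list. The T cell receptor constant genes and the neighbours of *Zbtb1* were chosen after their values were seen. Peak sequences and coordinates are from GRCm38 (mm10) and GENCODE vM21, read with pysam 0.24.0; 1 gene was passed over because its peak window lay within exons. Cbfa2t3 peaks were not used here. P-values measure the spread between replicates of 1 cell line.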

Additional observations from a re-analysis of the deposited data

How the results depend on the processing

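With 1705416 to 2095447 reads a library, 3 reads were worth 1.43 to 1.76 CPM, so values of low genes rest on few reads. Against sgControl, leaving out 1 library gave 300 to 457 calls (93 to 166 higher, 193 to 291 lower) in place of 556, and leaving out 1 of the 3 sgZbtb1 libraries gave 295 to 315 against the other gene-targeting libraries (79 to 94 higher, 204 to 221 lower) in place of 496. Without the filter on low values the counts were 365 (142 higher, 223 lower) against sgControl and 213 lower against the others. The study's rule on unlogged values gave 171 (27 higher, 144 lower). With edgeR, 257 genes were higher against the others in place of 169. The cause of these differences was not tested, beyond fewer libraries or more genes in the fit. No named gene that was called changed its direction under the alternatives run. Some list medians did: those of the corepressors, chaperones, Gimap genes, phospholipases and the 3 tested B-lineage markers differed in sign between limma and edgeR or DESeq2. Of the 137 named genes called, 66 kept the call in all 6 fits that left out a library, 132 with edgeR, 121 with DESeq2 and 91 without the filter. Those lost with DESeq2 include *Cd34*, *Lmo4*, *Slc16a3* and *Maml3*. The 9 reference libraries were not left out in turn.

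With the replicate number as a block, 711 genes were called against sgControl and 614 against the others. All 137 named calls were kept with the block. Deviations of sgZbtb1 and sgControl libraries with the same number correlated at 0.036, 0.034 and 0.032. Over all groups the mean correlation was 0.029 for the same number and -0.014 for other numbers. The main fit did not take the numbers as pairs, and these small values do not decide whether they are.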

Other observations

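Transcripts of T cell receptor constant genes were lower in 4 of the 5 that could be tested. A read near the 3′ end does not show whether the gene was rearranged. *Tcrg-C4* was at 383, 380 and 353 CPM in sgControl and at 209, 210 and 241 CPM in sgZbtb1 (-0.76 ± 0.09, adjusted p = 1.2e-08), and *Trdc* at 381, 388 and 388 CPM and at 291, 255 and 290 CPM (-0.47 ± 0.09, adjusted p = 0.00039). *Tcrg-C1* (-0.37) lost its call without sgControl replicate 2 or sgZbtb1 replicate 3, and *Tcrg-C2* (-0.29) without sgControl replicate 2 or sgZbtb1 replicate 2. The γ constant genes are close copies, so reads may have been split between them. All 4 were also lower against the other gene-targeting libraries.

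*Adgre1* (F4/80), a marker of macrophages, was at 82.5, 115 and 134 CPM in sgControl and at 42.5, 63.6 and 37.8 CPM in sgZbtb1 (-1.19 ± 0.16, adjusted p = 8.5e-08), with the other gene-targeting libraries between 85.8 and 208 CPM. Of the 10 myeloid markers, 5 were at 0 in all 6 libraries, and *Itgam* stood at 9.31 CPM and 9.68 CPM. *Nkg7*, a granule protein of cytotoxic lymphocytes, was at 6.39, 6.37 and 9.97 CPM and at 2.23, 0.478 and 0 CPM (-2.32, adjusted p = 0.0011), and *Pax5*, a B-lineage factor, at 6.97, 5.21 and 8.21 CPM and at 0, 0.956 and 1.47 CPM (-2.19, adjusted p = 0.0042). *Snhg11*, a snoRNA host gene, was at 0 in the 3 sgControl libraries and at 6.14, 7.17 and 5.40 CPM in sgZbtb1, at least 3.55-fold higher with 3 reads per library as the floor. It was the only call among 14 genes of its kind.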
